A study of Homo sapiens with 22 samples.

Results

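The largest group of replication-dependent histone genes of the human genome lies on the short arm of chromosome 6, and the regions called there in 4 sets of CUT&RUN data are described here. All regions of the 4 deposited count tables that lie in a 2.2 Mb window of chromosome 6 (GRCh38) and within 5 kb of a histone gene whose RefSeq symbol starts with H1-, H2AC, H2BC, H3C or H4C were taken, with pseudogenes left out. These are 203 of 409446 regions, made up of 61 of 95436 for acetylated histone H3 lysine 27 (H3K27ac), 55 of 138731 for Jun, 33 of 66168 for CTCF and 54 of 109111 for Rad21. The window holds 55 such genes: 6 for linker histone H1, 12 for H2A, 15 for H2B, 10 for H3 and 12 for H4. The rule uses positions and gene symbols and no measured value, but it was set with earlier results of these data known.

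The cells were K562, an established human leukemia line that was wild type per the labels, treated with 25 nM PMA, a phorbol ester, for 0, 6 or 72 h and fixed with formaldehyde. CUT&RUN releases the DNA around an antibody-bound protein with a tethered nuclease, and the count of a region is the number of reads that fell in it. H3K27ac, Jun and CTCF were profiled at all 3 times and Rad21 only before PMA and after 72 h, each group having 2 libraries and the groups numbering 11, 22 libraries in all. The labels do not say that the 2 libraries of a group came from separate cultures, so every p-value measures only the spread between these libraries, which may be technical.

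Replication-dependent histone genes supply the core and linker histones that package new DNA, and they are transcribed mainly in S phase. They are short, mostly lack introns and end in a stem-loop in place of a poly(A) tail. Their transcripts are made and processed in the histone locus body, which is organised by NPAT, and the H2B and H2A genes often stand head to head and share a promoter. H3K27ac marks active promoters and enhancers, Jun belongs to AP-1, a dimeric factor that phorbol esters activate, CTCF binds insulators and loop anchors, and Rad21 is a subunit of cohesin. PMA drives K562 cells out of the cell cycle and towards a megakaryocyte-like state.

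The promoters of 5 genes are printed because, with each Jun region assigned to the class of its nearest gene, theirs has the highest mean CPM of the class among those that hold a gene start. Each is the 250 bases before the annotated start, from RefSeq on GRCh38.p14, on the minus strand and written 5' to 3'. They lie at chr6:26234988-26235237 (H1-3), chr6:27838376-27838625 (H2AC15), chr6:27132796-27133045 (H2BC11), chr6:26032100-26032349 (H3C2) and chr6:26285535-26285784 (H4C8). Capitals mark matches on either strand to the CCAAT box, the TATA motif TATAAA, the octamer ATTTGCAT, the AP-1 motif TGANTCA and the cAMP response element TGACGTCA.
H1-3: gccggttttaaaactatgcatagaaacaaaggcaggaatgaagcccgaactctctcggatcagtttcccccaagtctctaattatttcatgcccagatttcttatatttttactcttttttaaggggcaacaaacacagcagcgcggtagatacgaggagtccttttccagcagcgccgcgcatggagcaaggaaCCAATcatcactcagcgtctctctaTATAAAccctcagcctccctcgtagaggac
H2AC15: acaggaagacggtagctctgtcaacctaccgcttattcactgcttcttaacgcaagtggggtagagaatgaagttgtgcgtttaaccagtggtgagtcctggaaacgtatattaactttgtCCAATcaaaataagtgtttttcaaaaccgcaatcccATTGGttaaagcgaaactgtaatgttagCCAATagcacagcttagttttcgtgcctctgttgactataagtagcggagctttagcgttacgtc
H2BC11: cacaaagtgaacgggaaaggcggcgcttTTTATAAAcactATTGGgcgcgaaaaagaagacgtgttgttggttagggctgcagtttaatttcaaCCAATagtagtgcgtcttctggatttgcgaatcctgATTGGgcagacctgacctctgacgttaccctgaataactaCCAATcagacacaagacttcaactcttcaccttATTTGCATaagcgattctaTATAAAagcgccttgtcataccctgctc
H3C2: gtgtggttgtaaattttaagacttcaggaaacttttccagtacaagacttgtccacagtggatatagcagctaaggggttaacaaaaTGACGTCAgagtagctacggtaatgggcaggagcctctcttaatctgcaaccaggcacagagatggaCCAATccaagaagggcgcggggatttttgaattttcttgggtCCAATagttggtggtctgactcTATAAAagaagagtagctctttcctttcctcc
H4C8: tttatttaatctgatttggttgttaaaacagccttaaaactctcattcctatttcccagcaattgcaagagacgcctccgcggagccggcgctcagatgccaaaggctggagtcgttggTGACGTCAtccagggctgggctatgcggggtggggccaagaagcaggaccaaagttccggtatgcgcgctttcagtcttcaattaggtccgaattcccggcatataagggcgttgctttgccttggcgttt
The octamer matches in H2BC11, and TGACGTCA matches in H3C2 and H4C8, while none of the 5 holds TGANTCA. The run TTTATAAA of H2BC11 holds TATAAA on both strands, and none of the 5 motifs contains another. Promoter entries were matched for 50 of the 55 genes. The octamer was found in 9 of 11 H2A and 12 of 15 H2B promoters, against 1 of 8 H3 promoters and 0 of 6 H1 and 0 of 10 H4 promoters, and in 1.66% of all 27305 RefSeq promoters of that length. CCAAT was in 86% of the cluster promoters and 33% of all, but in 3 of 10 H4 promoters. TATAAA was in 66% and 11.1%, TGACGTCA in 14% and 1.77%, and TGANTCA in 2% and 6.6%. Among the 29 promoters whose start lies inside a Jun region, 0 held TGANTCA and 5 held TGACGTCA. Such matches are a description of letters in this window and not of binding.

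Many of the regions lay over the genes. A gene start lay inside an H3K27ac region for 23 of the 50 genes with a known start, inside a Jun region for 29, inside a CTCF region for 20 and inside a Rad21 region for 28. The median distance from the centre of a region to the nearest start was 1098 bp for H3K27ac, 1194 bp for Jun, 137 bp for CTCF and 896 bp for Rad21. Per region, signal was above the typical region of the same table for 3 antibodies: the median of mean TMM-scaled CPM (counts scaled to a common library size) was 23.4 for H3K27ac against 3.3 over all tested regions, 10.3 against 3.3 for Jun and 12.7 against 4.1 for Rad21, and it was 8.89 against 7.38 for CTCF. Region width varied too, with medians of 645 and 621 bp, 564 and 477 bp, 428 and 282 bp, and 390 and 399 bp in the same order. H2BC3 and H3C3 had no region within 5 kb in any table. Coding sequences of histone genes of the same class are similar to each other. How reads that match several copies were handled is not given in the sources used here, so values of regions over gene bodies may share reads.

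Total counts per library ran from 2553677 to 27266241, lowest for CTCF. Mitochondrial counts took 0.286% to 1.47% of H3K27ac libraries, and in Jun libraries they took 24% and 27.7% at 0 h, then 21.3% and 18.1% at 6 h, then 9.07% and 8.58% at 72 h. As a check of the cell type, all 8 loci of K562 and erythroid marker genes had an H3K27ac peak in both 0 h libraries with summed levels of 149 to 396 CPM, against 3 of 8 loci of markers of other cell types with 0 to 51.9 CPM, 1 of them at 0. Of 6 megakaryocyte marker loci, 5 had a peak in both libraries at 0 h, 4 at 6 h and 6 at 72 h. FLI1, without such a peak at 0 h, held only 2.16 CPM at 72 h. Read by the strongest region of each gene, H3K27ac at 72 h was higher at 3 of the 6 and lower at 3 by edgeR. Over all tested regions 43.4% were higher and 38.1% lower. Of the loci of markers of other cell types, 5 of 8 had a peak in both 72 h libraries. The populations were not sorted, so fewer cells with signal at a region and less signal per cell cannot be told apart.

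The histone cluster lost Jun signal. The share of all Jun region counts that fell in the 55 cluster regions was 0.114% and 0.113% at 0 h, then 0.0669% and 0.084% at 6 h, then 0.0694% and 0.0655% at 72 h. Both 6 h and both 72 h libraries lay below both 0 h libraries, and the ratio of the 72 h mean to the 0 h mean was 0.592. Leaving out mitochondrial counts, whose share fell with time, gave a ratio of 0.481. For H3K27ac the shares were 0.323% and 0.319%, then 0.29% and 0.315%, then 0.268% and 0.279%, a ratio of 0.852 at 72 h. For CTCF they were 0.0376% and 0.0384%, then 0.0384% and 0.0461%, then 0.055% and 0.055%, a ratio of 1.45 that became 1.28 without mitochondrial counts, which took 17.8% to 30.5% of CTCF libraries at 0 and 6 h and 9.55% and 9.63% at 72 h. Rad21 shares were 0.111% and 0.0971% before PMA, then 0.0911% and 0.0824% after 72 h. For each antibody the shares at 0 and 72 h did not overlap, but without mitochondrial counts those of Rad21 did, at 0.168% and 0.129% against 0.131% and 0.118%.

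**Figure D1:**
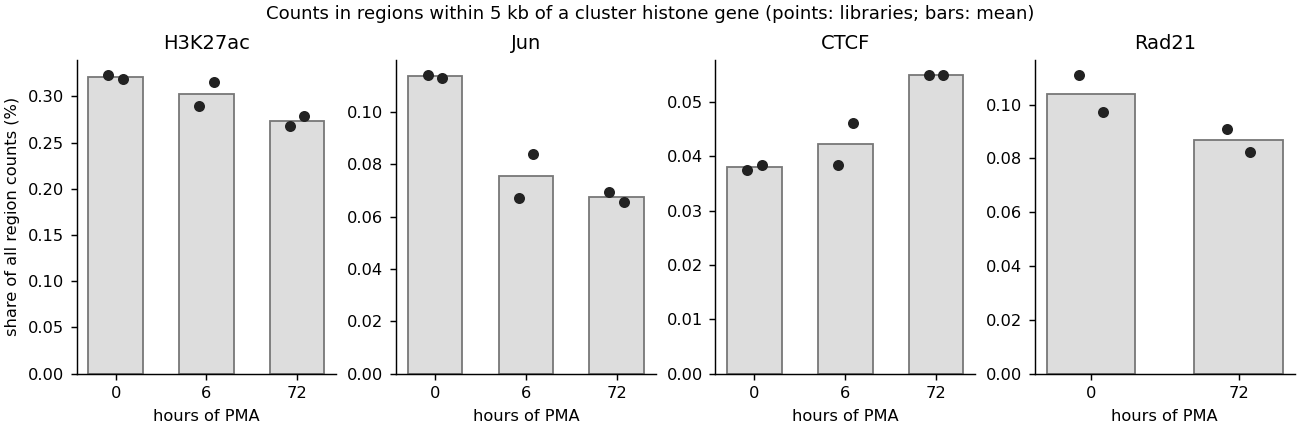
Share of all region counts of each library (%, vertical axis) that fell in regions within 5 kb of a cluster histone gene, by hours of PMA, for 4 antibodies. Points are libraries and bars the mean of 2. The Jun share drops from 0.114% and 0.113% at 0 h to 0.0694% and 0.0655% at 72 h, and the CTCF share is 0.055% in both 72 h libraries.

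The change in Jun was broad. Under edgeR's quasi-likelihood test with Benjamini-Hochberg adjustment over all regions of the table, 23 of 55 regions fell and 1 rose at 6 h against 0 h, where 25.3% of all tested regions were called, 12.2% lower. At 72 h against 0 h, 43 of 55 fell and 1 rose, where 53.7% of all tested regions were called, 25.7% lower. The median log2 fold change at 72 h was -1.18 in the cluster and 0.17 over all tested regions. With TMM factors 34 of the 55 were at least 2-fold lower, a count that was not made over all tested regions. The 6 h and 72 h comparisons share their 0 h libraries. From 6 to 72 h, 18 of 55 fell and 0 rose by edgeR, with 27 at an unadjusted p under 0.05 in either direction and 0 higher by DESeq2 too, where 26.2% of all tested regions were called. That last comparison depends on the scaling of libraries: with TMM factors computed only on regions peaked in all 6 Jun libraries (stable-peak scaling below), 5 rose and 3 fell. It depends on single libraries too, with 9 lower without the second 6 h library, 7 without the first and 2 without the second 72 h library.

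Scaling matters for every such count, because the median log2 fold change of all Jun regions at 72 h was 0.17 with TMM factors, 0.73 when libraries were scaled by total counts and 0.96 with stable-peak scaling. The cluster median was -1.18, -0.62 and -0.39, with 43, 29 and 26 of 55 regions lower and 1, 6 and 9 higher. For H3K27ac the median of all regions moved likewise, from 0.18 to 0.42 and 0.79. Changes below are given with TMM factors, and a direction that another scaling turns is named.

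With TMM factors, Jun fell at genes of every histone class. Taking for each gene its nearest region with the highest mean CPM, 32 of 36 genes fell at 72 h and 0 rose by edgeR: 4 of 4 for H1, 8 of 8 for H2A, 8 of 9 for H2B, 6 of 6 for H3 and 6 of 9 for H4. Grouped by position along the chromosome, 27 of 33 regions fell in the first large block of genes, 4 of 4 in the middle block and 11 of 17 in the second large block, where 1 rose. The single region of the distant H2AC1 and H2BC1 pair fell as well.

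Among linker histone genes, whose products bind the DNA between nucleosomes, the region 4491 bases from H1-1 (chr6:26012060-26012540) had 8.61 and 8.89 CPM of Jun at 0 h, then 2.04 and 2.01 at 6 h, then 0.808 and 0.976 at 72 h. Its log2 fold change at 72 h was -3.27 ± 0.33 (SE, adjusted p = 1.15e-07 by edgeR), the lowest of the 55 regions. Each later time point lay below the one before, in both libraries. The raw counts there were low, at 59 and 62 reads, then 9 and 11, then 17 and 23. The strongest H1 region of Jun, 2498 bases from H1-2 (chr6:26052667-26053241), had 15.3 and 19.1, then 17.7 and 15.9, then 10.5 and 8.57 CPM. It was not called at 6 h (log2 fold change -0.04 ± 0.22). At 72 h the change was -0.85 ± 0.20 (adjusted p = 1.32e-03, edgeR), and it ran from -1.0 to -0.07 over the alternative settings.

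Of the H2A and H2B genes, the divergent pair H2AC15 and H2BC15 carried a wide Jun region (chr6:27836891-27838676) with 110.8 and 114.4 CPM at 0 h, then 56.3 and 75 at 6 h, then 47.0 and 42.3 at 72 h. The log2 fold change was -0.78 ± 0.20 at 6 h (adjusted p = 5.92e-03, edgeR; 0.0605 without the second 0 h library) and -1.33 ± 0.20 at 72 h (8.57e-06). At the H2BC11 and H2AC11 pair (chr6:27132477-27133098) the libraries held 31.4 and 35.3, then 18.6 and 19.7, then 13.9 and 12.7 CPM, a log2 fold change of -1.32 ± 0.18 at 72 h (adjusted p = 4.48e-06, edgeR). A region 796 bases from H2AC14 (chr6:27812968-27813505) dropped early, from 27 and 25.9 CPM to 4.77 and 5.11 at 6 h, and stood at 4.14 and 4.71 at 72 h (log2 fold change -2.58 ± 0.20, adjusted p = 1e-08, edgeR). In all 3 the groups at 0 h and 72 h did not overlap.

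Of the H3 and H4 genes, which encode the most conserved core histones, H3C2 (chr6:26032018-26032751) had 67.5 and 55.9 CPM at 0 h, then 16.3 and 19.7 at 6 h, then 11.6 and 12.4 at 72 h. Its log2 fold change was -1.77 ± 0.20 at 6 h (adjusted p = 2.55e-06, edgeR) and -2.37 ± 0.19 at 72 h (1.16e-08). H4C5 (chr6:26204052-26204901) had 92.2 and 92.9, then 25.2 and 44.5, then 18.4 and 18.8 CPM, and fell by 2.31 ± 0.22 on the log2 scale at 72 h (adjusted p = 5.07e-08, edgeR). H4C8 (chr6:26285143-26286091), whose Jun region was chosen for mention after its values were seen, had 111 and 111, then 48.4 and 56.8, then 27.4 and 28.2 CPM, and fell by 2.00 ± 0.19 (adjusted p = 5.07e-08, edgeR). At these 3 genes the 6 h libraries lay between the 0 h and the 72 h libraries. The promoters of H3C2 and H4C8 are the ones printed above that hold TGACGTCA.

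**Figure D2:**
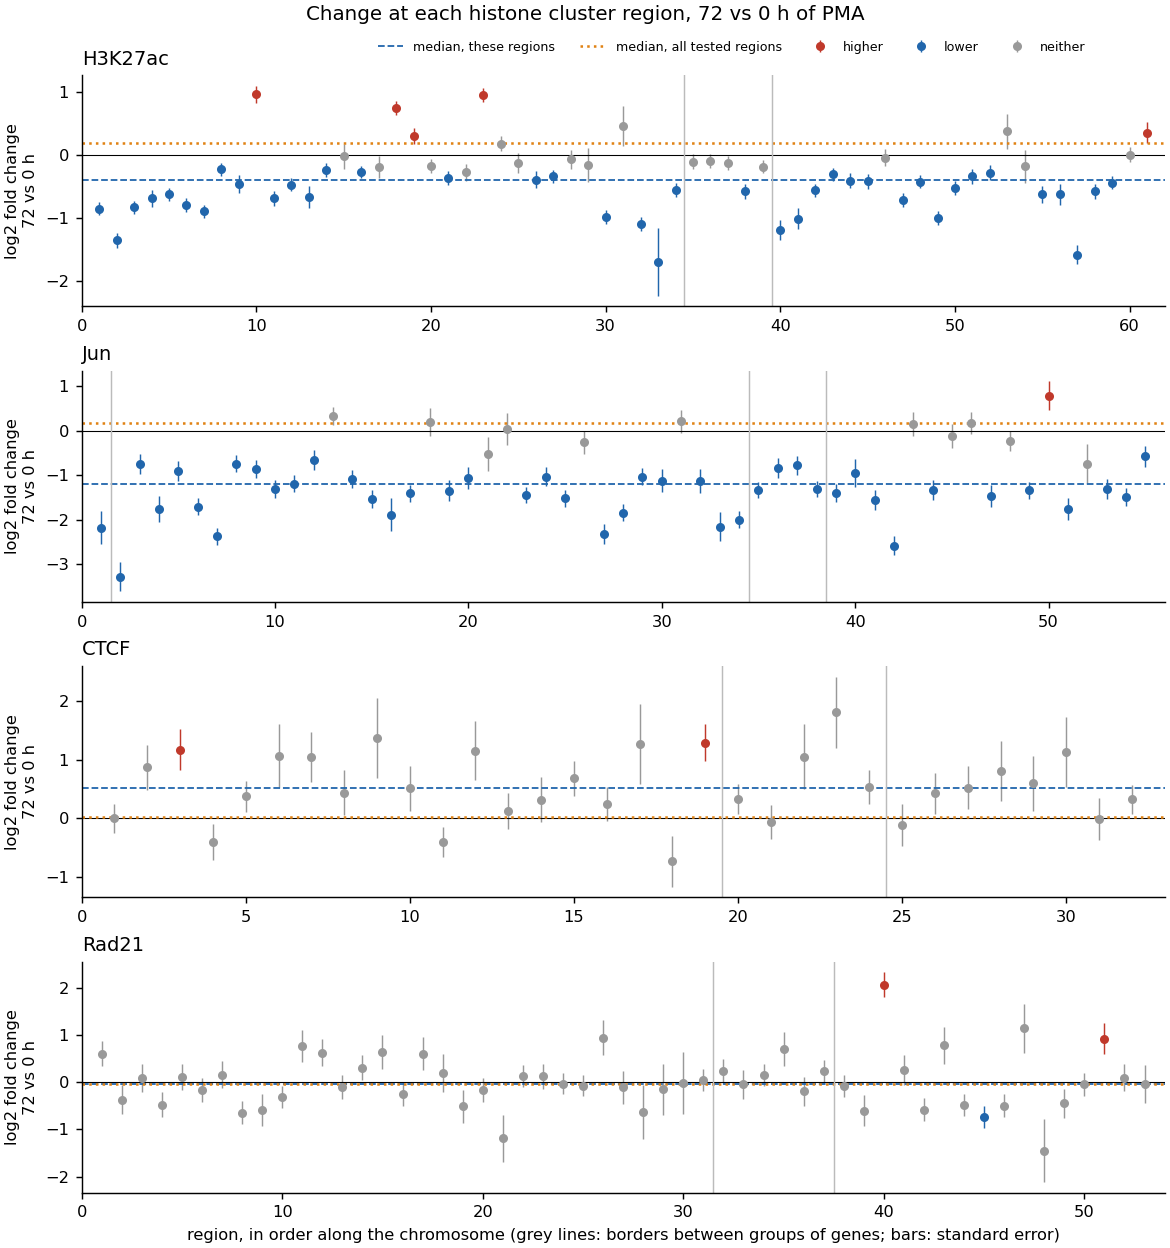
Log2 fold change at 72 against 0 h of PMA (vertical axis, bars are the SE) of each tested region, in order along the chromosome, for 4 antibodies, coloured by the edgeR call. Most Jun regions lie below 0 (43 of 55 called lower), for H3K27ac 39 of 61 are lower and 5 higher (11 and 28 with stable-peak scaling), and few CTCF or Rad21 regions are called.

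Regions with a gene start inside fell in Jun without exception. Of the 21 Jun regions that hold the start of a histone gene, 21 were lower at 72 h by edgeR, with a median log2 fold change of -1.40, and under total-count scaling or stable-peak scaling 16 of the 21 were lower and 0 higher. Of the 34 with no start inside, 22 were lower and 1 higher, with a median of -0.84, against 13 lower and 6 higher with total counts and 10 lower and 9 higher with stable-peak scaling (median -0.05). At 6 h, 15 of the 21 were already lower. For H3K27ac, 15 of 17 regions with a start were lower at 72 h and 0 higher with a median of -0.53, which total-count scaling left at 11 lower and 0 higher, whereas stable-peak scaling gave 4 lower and 6 higher. The difference between regions with and without a start was not tested.

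**Figure D3:**
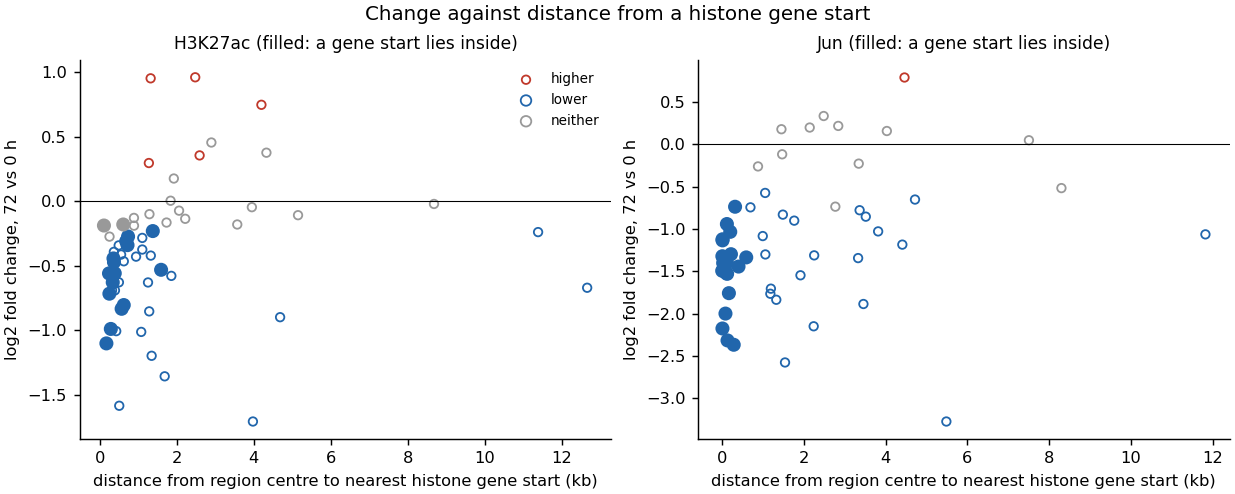
Log2 fold change at 72 against 0 h (vertical axis) of each H3K27ac and Jun region against the distance in kb from its centre to the nearest histone gene start. Filled points hold a gene start, and all 21 such Jun points lie below 0 and are called lower by edgeR; the direction of the H3K27ac points depends on the scaling.

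The rest of the window was read beside the cluster, with no test of the difference. The window held 212 tested Jun regions more than 5 kb from a histone gene. Of these neighbours, 55 fell and 6 rose at 6 h. Their median log2 fold change at 6 h was -0.487, near the cluster median of -0.569. The early fall in Jun was thus of similar size in the rest of the window. At 72 h, 103 neighbours fell and 8 rose, with a median of -0.65 against -1.184 in the cluster. Under stable-peak scaling the 72 h median of these neighbours was 0.14, above 0, and that of the cluster -0.39. For H3K27ac, 62 of 175 neighbours fell and 49 rose at 72 h (median -0.06). Just inside the 5 kb limit, a Jun region 4759 bases from H2BC5 changed by 0.05 at 72 h, and just outside it, 5043 bases from H2AC1, one changed by 0.78, both on the log2 scale. The same pair of values was -0.11 and -3.09 for H3K27ac, 0.32 and 0.05 for CTCF and 0.23 and -0.73 for Rad21.

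Only 1 Jun region rose at 6 h and 1 at 72 h. A region inside the span of H2BC4 (chr6:26121062-26121818) was centred 2486 bases from the gene start. It had 15.3 and 10.5 CPM at 0 h, then 20.9 and 24.1 at 6 h, then 16.6 and 15.9 at 72 h. The change at 6 h was 0.81 ± 0.22 on the log2 scale (adjusted p = 0.01, edgeR). Without the second 0 h library, the second 6 h library or the second 72 h library its adjusted p was 0.168, 0.0897 and 0.0595. A region near H2AC16 (chr6:27860578-27861132) had 3.65 and 2.29, then 3.86 and 3.47, then 4.71 and 5.56 CPM, a change of 0.79 ± 0.32 at 72 h (adjusted p = 0.0415, edgeR). That call was lost without the second 0 h library (0.296), the second 6 h library (0.0511), the first 72 h library (0.111) or the second 72 h library (0.343).

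H3K27ac at the cluster was lower after PMA with TMM factors, a direction that stable-peak scaling turned at both times and total counts at 6 h. At 6 h, 30 of 61 regions fell and 4 rose, where 58.6% of all tested regions were called, 26.3% lower. At 72 h, 39 fell and 5 rose, where 81.5% were called, 38.1% lower. The median log2 fold change at 72 h was -0.39, and -0.16 with total counts, but it was 0.21 with stable-peak scaling, under which 11 fell and 28 rose. At 6 h the median was -0.31 with TMM factors, 0.02 with total counts and 0.04 with stable-peak scaling, and each of the last 2 gave 13 lower and 14 higher. A change of scaling moves all regions alike, so the distance of the cluster median from that of all regions, 0.58 lower at 72 h with TMM factors, says nothing about stability. That distance depends on signal level too, since cluster regions were stronger than the typical region. Among regions with a mean count of at least 50, 29 of 59 cluster regions fell and 6 rose at 72 h, where 42.6% of all fell. The cluster median there was -0.24, against -0.03 over all such regions. From 6 to 72 h, 11 fell and 1 rose with TMM factors, where 63.8% of all tested regions were called, 30.8% lower, and 0 fell and 23 rose with stable-peak scaling. Without the first 6 h library 19 fell and 1 rose, and without the first 72 h library 5 fell and 1 rose.

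**Figure D4:**
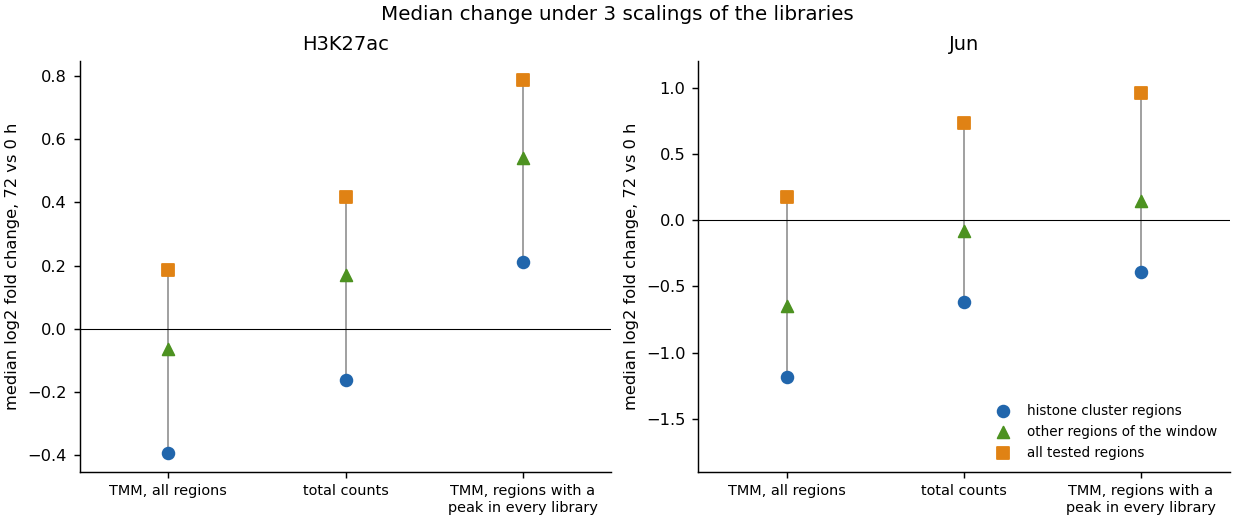
Median log2 fold change at 72 against 0 h (vertical axis) of cluster regions, other regions of the window and all tested regions, under 3 scalings of the libraries, for H3K27ac and Jun. The 3 medians shift together by construction. The cluster median goes from -0.39 to 0.21 for H3K27ac and from -1.18 to -0.39 for Jun.

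By class, with TMM factors, 28 of 34 genes had lower H3K27ac at 72 h and 1 higher: 4 of 4 for H1, 5 of 7 for H2A, 7 of 9 for H2B, 4 of 5 for H3 and 8 of 9 for H4. The strongest H1 signal spanned H1-2 (chr6:26053958-26057750), with 270 and 273.4 CPM at 0 h, then 171.9 and 194.2 at 6 h, then 145.2 and 165.8 at 72 h. H1-5 (chr6:27866681-27867497) had 16.7 and 16.8, then 8.47 and 8.56, then 5.43 and 5.72 CPM, and fell by 1.58 ± 0.15 on the log2 scale at 72 h (adjusted p = 4.34e-10, edgeR). At H1-5 the 3 time points did not overlap and the level went down at each.

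The H2AC15 and H2BC15 pair (chr6:27834833-27838743) had 296.4 and 280.5 CPM of H3K27ac at 0 h, then 167.2 and 194.3 at 6 h, then 189.4 and 209.6 at 72 h, a log2 fold change of -0.53 at 72 h that became 0.07 with stable-peak scaling. The region over H2BC9 and H3C7 (chr6:26249497-26253401) had 113 and 115.7, then 63.8 and 75.2, then 51.3 and 55.3 CPM, a log2 fold change of -1.10 ± 0.11. The region beside H4C2 (chr6:26025336-26025870) had 49.3 and 53.2, then 24.2 and 31.4, then 19.0 and 21.0 CPM, a log2 fold change of -1.36 ± 0.12 (adjusted p = 1.02e-10, edgeR). H4C3 (chr6:26102036-26104871) went from 128.3 and 130.8 to 68.7 and 71.0 at 6 h, and was at 65.8 and 73.2 at 72 h. H4C8 had 153.6 and 158.1, then 93.9 and 114.4, then 99.9 and 111.6 CPM of H3K27ac, a log2 fold change of -0.56 that was 0.04 with stable-peak scaling. The region tied to H2BC5 was centred 11388 bases from the nearest histone gene start. It had 127.9 and 137.7, then 98.6 and 121.1, then 111.1 and 113.9 CPM.

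A few flanks gained H3K27ac. Beside H3C4 (chr6:26194510-26195685, 1098 bases away, over a pseudogene), the libraries held 26.1 and 24.8 CPM at 0 h, then 42.3 and 51.0 at 6 h, then 40.4 and 44.9 at 72 h, a log2 fold change of 0.88 ± 0.12 at 6 h and 0.75 ± 0.11 at 72 h. Beside H2AC6 (chr6:26126369-26126924) they held 9.14 and 8.96, then 15 and 14.7, then 16.7 and 18.5 CPM, a log2 fold change of 0.96 ± 0.14 at 72 h. Beside H4C5 (chr6:26205355-26206496, 333 bases away) they held 31.7 and 26.5, then 40.9 and 42.5, then 53.1 and 59.3 CPM, a log2 fold change of 0.95 ± 0.11 (adjusted p = 2.44e-08, edgeR). In all 3 the libraries at 6 and 72 h lay above those at 0 h. These 3 were named because they were called higher at both times, so that order adds no separate support.

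Jun went the other way at the last of these flanks. The Jun region inside it (chr6:26205482-26206390) had 47.1 and 56.2 CPM at 0 h, then 11.6 and 11.5 at 6 h, then 15.6 and 13.4 at 72 h, a log2 fold change of -2.16 ± 0.21 at 6 h (adjusted p = 4.86e-07, edgeR) and -1.83 ± 0.19 at 72 h (1.14e-07). Over the cluster, 41 of 55 Jun regions overlapped an H3K27ac region by at least 1 base. Across these 41 regions the log2 fold changes at 72 h had a Pearson r of 0.26, which describes these regions, which share libraries and are not independent.

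CTCF counts were low and few regions were called. At 6 h, 2 of 32 tested regions rose and 0 fell by edgeR, with 5 at an unadjusted p under 0.05 and 2.65% of all tested regions called. At 72 h 2 rose and 0 fell, with 7 at an unadjusted p under 0.05 and 6.79% of all called, 4.07% higher and 2.72% lower, and DESeq2 called 0. From 6 to 72 h 1 fell, where 2.18% of all were called, 0.449% higher and 1.73% lower. The regions that rose at 72 h were over H3C2 (chr6:26031765-26032387; 8.92 and 6.86, then 14.9 and 6.92, then 18.2 and 17.8 CPM; log2 fold change 1.17 ± 0.35, adjusted p = 0.0492, edgeR) and over H4C8 (chr6:26285235-26285908; 8.92 and 6.13, then 12.0 and 10.6, then 15.9 and 21.4 CPM; 1.29 ± 0.32, adjusted p = 0.0272, edgeR). Neither call remained when any of the 0 h or 72 h libraries was left out. Total-count scaling raised the regions called from 6 to 72 h to 8 higher and 1 lower, and without the first 6 h library 2 were higher and 2 lower, and without the first 72 h library 0 were called. The same promoters lost Jun signal, above. The strongest CTCF region (chr6:26175327-26176042) lay 3977 bases from H2BC5, with its centre 8076 bases from the nearest histone gene start. It had 53.3 and 59.5, then 61.8 and 81.4, then 43.6 and 41.7 CPM and was not called.

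A CTCF region at H2BC4 (chr6:26121112-26121330), inside the Jun region that rose there, had 1.78 and 2.17 CPM at 0 h, then 13.6 and 8.95 at 6 h, then 4.38 and 3.93 at 72 h. Its log2 fold change was 2.52 ± 0.52 at 6 h (adjusted p = 8.27e-03, edgeR), and it was chosen for mention after its values were seen. The call was lost without either 0 h library or the first 6 h library.

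The other was a region 1243 bases from H3C10 (chr6:27811780-27812158) that has the same coordinates in the Jun, CTCF and Rad21 tables, the only cluster region of which this is true, as it is of 473 regions in the genome. CTCF there was 11.5 and 17.7 CPM at 0 h, then 71.9 and 72.4 at 6 h, then 11.5 and 26.3 at 72 h, so that both 6 h libraries stood above all the others. The log2 fold change was 2.33 ± 0.34 at 6 h (adjusted p = 7.32e-04, edgeR; 0.0772 without the first 0 h library) and -1.9 ± 0.32 from 6 to 72 h (adjusted p = 3.05e-03, edgeR). Rad21 was 11.8 and 11 CPM at 0 h and 38.6 and 57.1 at 72 h, a log2 fold change of 2.06 ± 0.26 (adjusted p = 1.25e-05, edgeR). Jun, given there because it shares the coordinates and chosen after its values were seen, was 12.1 and 15.3, then 19.5 and 15.5, then 4.90 and 4.50 CPM, a change of -1.55 ± 0.22 at 72 h (adjusted p = 7.36e-06, edgeR). At 72 h, then, Rad21 was higher, Jun lower and CTCF not different from 0 h by the test (log2 fold change 0.43, adjusted p = 0.425, edgeR). Rad21 was not measured at 6 h.

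**Figure D5:**
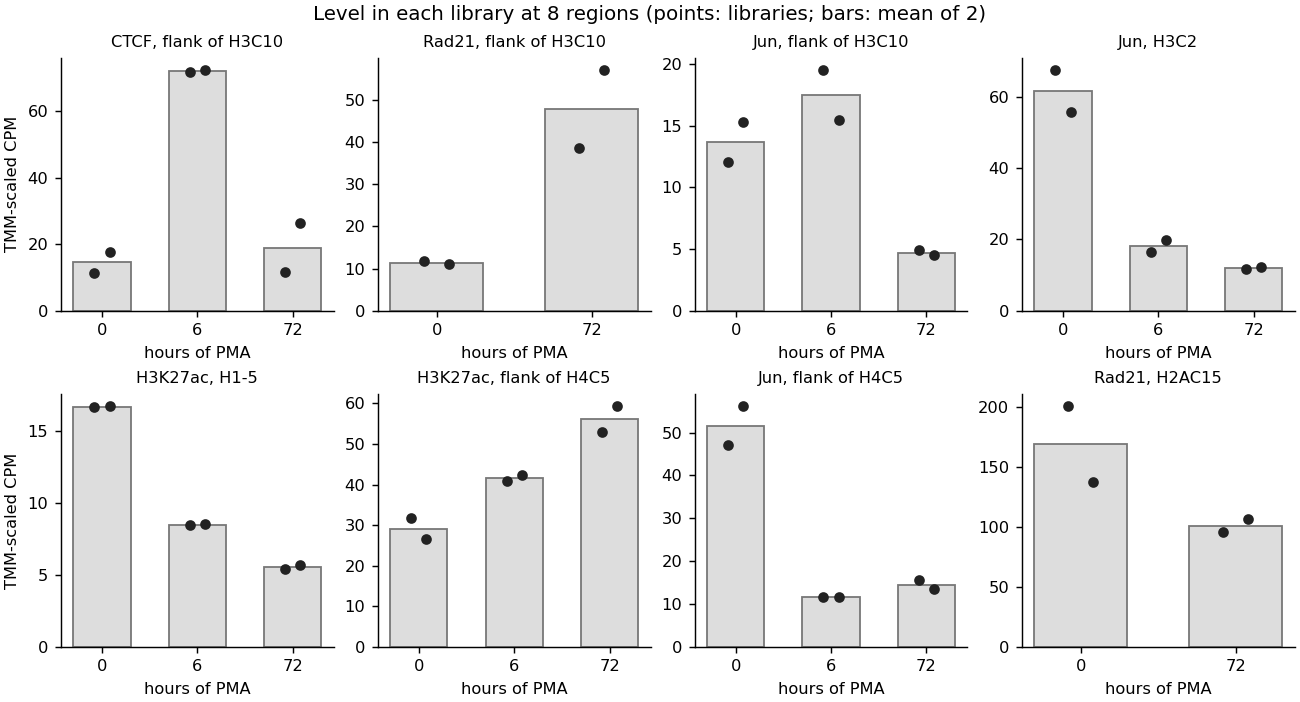
TMM-scaled CPM (vertical axis, from 0) in each library, by hours of PMA, at 8 regions; points are libraries and bars the mean of 2. At the flank of H3C10, CTCF reaches 71.9 and 72.4 CPM at 6 h, and Rad21 38.6 and 57.1 at 72 h; at the flank of H4C5 H3K27ac rises while Jun drops.

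Few other Rad21 regions of the cluster were called. At 72 h, 2 of 53 tested regions rose and 1 fell by edgeR, where 23.3% of all tested regions were called, 15.4% higher and 7.91% lower, and the median log2 fold change was -0.04 against -0.05 over all. Total-count scaling gave 1 higher and 6 lower. Without the first 0 h library 7 rose and 0 fell, without the second 2 rose and 5 fell, and without either 72 h library 1 rose and 0 fell. The region that fell was over H2AC15 (chr6:27836962-27837880), with 200.8 and 137.4 CPM at 0 h and 95.7 and 106.5 at 72 h (log2 fold change -0.74 ± 0.23, adjusted p = 0.0238, edgeR), and without the first 0 h library the change was -0.24 (adjusted p = 0.409, edgeR), while without either 72 h library the adjusted p was 0.278 or 0.15. The other that rose, beside H2BC17 (chr6:27894398-27894625), had 5.35 and 4.22 CPM at 0 h and 9.23 and 9.05 at 72 h (0.92 ± 0.33, adjusted p = 0.0482, edgeR), a call that remained in 4 of the 10 settings with a value. Of the 54 Rad21 regions, 48 overlapped a cluster region of H3K27ac and 38 one of Jun.

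Peak calls of the authors gave a different measure. Counting regions with a peak in both libraries, Jun had 25 of 55 at 0 h, 14 at 6 h and 29 at 72 h, against 18%, 13.2% and 56.2% of all Jun regions. H3K27ac had 30, 26 and 34 of 61, against 29.2%, 24.1% and 48% of all its regions. CTCF had 11, 6 and 11 of 33 (33.3%, 18.2% and 33.3%), near the 34.6%, 23.1% and 36.1% of all its regions. Rad21 had 24 and 22 of 54 at 0 and 72 h, against 18.7% and 15.1% of all. The Jun libraries at 72 h held 17245043 and 18883962 counts, against 7952946 and 8600736 at 0 h, and the part of depth in these peak counts was not tested. The authors' deposited table labels 61 of 61 H3K27ac regions static (64.3% of its whole table), 47 of 55 Jun regions (89.8%), 32 of 33 CTCF regions (98.7%) and 53 of 54 Rad21 regions (98.2%).

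Genes outside the cluster that serve histone supply were read from a fixed list of 20, among them NPAT, the histone locus body coactivator, SLBP, which binds the stem-loop of histone mRNA, and HINFP, an H4 gene activator. At 72 h H3K27ac was lower at 19 of 20 and higher at 1 (LSM11, 0.57 ± 0.18), where 38.1% of all tested regions were lower and 43.4% higher, with a median log2 fold change of -0.89, and with stable-peak scaling 12 were lower and 1 higher with a median of -0.29. Values were -0.68 at NPAT, -0.86 at SLBP and -0.54 at HINFP. Jun was lower at 15 of the 20 and higher at 2, where 25.7% of all tested regions were lower and 28% higher, with a median of -1.09, against 6 lower and 4 higher with stable-peak scaling. The 2 with higher Jun were LSM11 (1.42 ± 0.25) and SLBP (0.64 ± 0.22), each at another region than that of H3K27ac. Each gene was read by its strongest region within 5 kb, which for Jun lay 3848 bases from CCNA2, for example. At histone genes of the same classes on other chromosomes Jun was lower at 8 of 10 regions and higher at 0, with a median of -1.36 at 72 h (5 lower and 2 higher with stable-peak scaling, median -0.57). H3K27ac there was lower at 4 of 8 with a median of -0.29, which was 0.32 with stable-peak scaling.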

How the data were processed

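Members and gene lists were chosen with earlier results of these data known. The authors deposited, for each antibody, a table of read counts per region with log2 fold changes and adjusted p-values, and per library a peak list with fold enrichment and −log10 p and q as the peak caller gave them. The submitters' processing notes name Trim Galore 0.4.3, BWA 0.7.17, SAMtools 1.9, deepTools 3.0.1, MACS2, bedtools 2.26 and both hg19 and hg38. Positions on chromosome 20 reach 64331078, past the hg19 end, so GRCh38 was used, and starts are printed 1-based.

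Counts were tested with edgeR 4.0.16 (R 4.3.3) per antibody: low counts were filtered with filterByExpr, libraries were scaled by TMM, all time points were fitted together, and p-values were adjusted over all tested regions at 0.05. A ± after a log2 fold change is its SE. Precision is limited by 2 libraries per group and by depth, 2553677 to 27266241 counts. DESeq2 1.42.0, other scalings and filters, a replicate block and leaving out each library were alternatives. Tested on simulated data with 200 regions changed 4-fold, the fit at 72 against 0 h recovered 181 for H3K27ac (94865 regions), 156 for Jun (132947), 154 for CTCF (58156) and 130 for Rad21 (83750). Of the regions it called, 6.22%, 4.88%, 5.52% and 4.41% were unchanged ones, in the same order. Only those 200 regions changed, equally up and down, so the simulation cannot show how the scaling does when most regions change. Each region was tied to its nearest histone gene. Named regions were, per antibody, the one with the highest mean CPM in each histone class and, per comparison against 0 h, up to 4 called regions with the largest and 4 with the smallest log2 fold change among those with at least the median CPM of tested regions. Others are said to be chosen after their values were seen.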

Additional observations from a re-analysis of the deposited data

How the results depend on the processing

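Of 939 alternative values for 74 named results, 823 kept direction and side of the threshold, 66 lost the call, 12 gained one, 31 moved and 7 reversed. All 7 were H3K27ac regions. With stable-peak scaling the log2 fold change became 0.08 at H2BC5 at 6 h, and at 72 h 0.37 at H2BC5, 0.58 at its flank, 0.04 at H4C8, 0.29 at H3C10 and 0.07 at H2AC15, and total-count scaling gave 0.06 at H2BC5 at 6 h. The called regions at 72 against 6 h numbered 23 for H3K27ac and 8 for Jun with that scaling, and 25 and 7 with total counts. For CTCF, at 6 h a mean count of at least 50 left 1 and a limit of 1 kb left 1; at 72 h DESeq2 gave 0 (3 at an unadjusted p under 0.05) and a mean count of at least 50 gave 1; from 6 to 72 h total counts gave 9, and a mean count of at least 50 or a limit of 1 kb gave 0. For Rad21, DESeq2 gave 1, the replicate block 5 and total counts 7. Leaving out 1 library gave 28 to 36, 34 to 46 and 6 to 20 called H3K27ac regions (6 against 0, 72 against 0 and 72 against 6 h), 17 to 24, 37 to 44 and 2 to 21 for Jun, 0 to 2, 0 to 3 and 0 to 4 for CTCF, and 1 to 7 for Rad21. The cause was not tested.

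The ratio of regions with a peak in both libraries at 72 to 0 h was 1.18 for H3K27ac and 1.33 for Jun when a peak had to cover at least 50% of a region, 1.04 and 1.14 within 1 kb, and 1.00 for Jun and 0.714 for Rad21 at −log10 q of at least 10. Without 1 library it was 1.06 to 1.30 for H3K27ac, 0.967 to 1.4 for Jun, 0.786 to 2.09 for CTCF and 0.688 to 1.33 for Rad21. The ratio of shares of counts was 0.725 (H3K27ac), 0.402 (Jun), 1.23 (CTCF) and 0.938 (Rad21) from TMM-scaled CPM, 0.481 and 1.28 for Jun and CTCF without mitochondrial counts, and 1.55 for CTCF within 1 kb. Without 1 library it was 0.835 to 0.869, 0.575 to 0.61, 1.43 to 1.46 and 0.785 to 0.894 in the same order. Deviations of same-numbered libraries correlated at 0.132 at most, which with 2 libraries per time cannot exclude a pairing by replicate number. With the replicate block 31, 40 and 14 H3K27ac regions fell at the 3 comparisons. The share of all CTCF regions called at 72 against 0 h was 12.3% with that block and 6.79% without it.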

Other observations

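Replication-independent histone genes, whose transcription is not confined to S phase, were read beside the cluster. H3K27ac was lower at 72 h at 9 of 9 tested and higher at 0 by edgeR, where 38.1% of all tested regions were lower. The median log2 fold change was -0.77. With stable-peak scaling 4 were lower and 0 higher, with a median of -0.16. Jun was lower at 7 of 10 and higher at 1, against 3 lower and 3 higher with stable-peak scaling.

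The authors' deposited table labels 4 Jun cluster regions as rising late although its own log2 fold changes for them are negative at both times, for example -1.698 and -2.006 at the region of the H2AC1 and H2BC1 pair, and for Jun 3 more are labelled as falling late and 1 as falling early. It also labels the CTCF region beside H3C10 as rising late, with log2 fold changes of 2.234 at 6 h and 0.1659 at 72 h, and its adjusted p-values for the 2 times are identical.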
